A study of Rattus norvegicus with 12 samples.

Results

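Mitosis and cell cycle genes were followed in uterine tissue of rats after an injury of the uterine lining and after implantation of a printed patch. The list holds 42 genes of the 34034 in the deposited table, matched by gene symbol, and was split by role into 13 G1 regulators, 4 S-phase enzymes and 25 mitotic genes. Of the 42 members, 41 had enough counts to be tested, and the exception was Rrm2. All tissue came from female rats aged 8 weeks and was profiled by QuantSeq, a 3' mRNA sequencing method, from 1000 ng of total RNA per library. EEP tissue had received a bioprinted endometrial patch with cells 2 days after the lining was scraped with a bent needle, a model of intrauterine adhesion. CP tissue had the same scraping and a patch printed from the matrix alone, without cells. AS tissue had the scraping and no patch, and normal tissue is labelled with none of these. There were 3 libraries in each of the 4 groups. The type and species of the patch cells, the patch cells' share of the tissue and the day of harvest are not given in the sources used here. The labels title the samples endometrium, whereas the design text speaks of uterine tissue, so the amount of muscle wall is not known. Horns of the same animal could stand in different groups, and the labels tie no library to an animal, so p-values here measure the spread between libraries.

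The cell cycle is driven by cyclin-dependent kinases, whose activity depends on cyclins that are made and destroyed in turn. D-type cyclins with Cdk4 or Cdk6, and E-type cyclins with Cdk2, inactivate the retinoblastoma protein and release E2F factors, which switch on the enzymes of DNA synthesis. Genes of mitosis are transcribed later, in G2, so their transcripts are widely used as a sign of dividing cells. In the uterus, division of epithelial and stromal cells follows the ovarian steroid cycle, and injury of the lining is repaired by renewed division.

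Promoters of the members are shown because many late cell cycle genes share short elements near their start. The CHR, a cell cycle element searched here as TTTGAA or TTCGAA, and the CCAAT box are both known from genes of G2 and mitosis, and E2F sites, searched as TTTCGCGC, TTTGGCGC or GGCGGGAA, from genes of S phase. RefSeq promoters of rat build GRCr8 were found for 31 of the 42 members, and the 250 bases before each start were searched on both strands. A CHR was present in 11 of 21 mitotic promoters (52.4%), in 1 of 3 S-phase promoters and in 0 of 7 G1 promoters, against 17.4% of all 33469 promoters. A CCAAT box was present in 18 of 21 mitotic promoters (85.7%), in 1 of 3 S-phase and in 3 of 7 G1 promoters, against 34% of all promoters. Both elements together were found in 10 of 21 mitotic promoters (47.6%), against 6.31% of all promoters. E2F sites were found in 2 of 3 S-phase promoters, 2 of 21 mitotic and 1 of 7 G1 promoters, against 2.15% of all. Such matches describe letters in a window and do not show binding.

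The 150 bases before the start are printed for 6 mitotic genes, 5 of them with a CHR and Cenpf with CCAAT boxes alone, with capitals for the motifs searched, read on either strand. They lie at chr1:199952594-199952743 on the minus strand for Mki67, chr20:19265143-19265292 on the plus strand for Cdk1, chr8:79981659-79981808 on the minus strand for Ccnb2, chr5:137255800-137255949 on the minus strand for Cdc20, chr5:142483200-142483349 on the minus strand for Cdca8 and chr13:103760887-103761036 on the minus strand for Cenpf. In Mki67 and Cdca8 the CHR and a reversed CCAAT box overlap by 1 base.
Mki67: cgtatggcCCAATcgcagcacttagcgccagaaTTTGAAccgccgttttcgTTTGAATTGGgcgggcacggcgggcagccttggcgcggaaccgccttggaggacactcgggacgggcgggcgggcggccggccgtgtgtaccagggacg
Cdk1: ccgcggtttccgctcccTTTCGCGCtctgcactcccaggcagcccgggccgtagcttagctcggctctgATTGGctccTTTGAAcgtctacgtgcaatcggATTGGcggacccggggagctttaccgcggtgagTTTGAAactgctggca
Ccnb2: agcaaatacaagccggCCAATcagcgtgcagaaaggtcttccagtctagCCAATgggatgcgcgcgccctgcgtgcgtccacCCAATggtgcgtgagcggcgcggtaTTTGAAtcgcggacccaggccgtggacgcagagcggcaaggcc
Cdc20: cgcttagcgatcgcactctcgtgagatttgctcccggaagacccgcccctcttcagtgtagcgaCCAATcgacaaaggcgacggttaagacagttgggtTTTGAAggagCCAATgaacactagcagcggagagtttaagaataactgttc
Cdca8: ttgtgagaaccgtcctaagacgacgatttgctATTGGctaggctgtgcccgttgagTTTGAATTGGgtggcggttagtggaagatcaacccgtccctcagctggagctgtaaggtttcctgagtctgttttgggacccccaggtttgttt
Cenpf: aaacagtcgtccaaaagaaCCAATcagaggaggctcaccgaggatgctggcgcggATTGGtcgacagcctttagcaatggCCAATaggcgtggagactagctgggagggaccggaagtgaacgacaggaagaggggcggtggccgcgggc
For contrast, the windows of an S-phase enzyme with an E2F site (Tyms, chr9:120776084-120776233 on the minus strand) and of a G1 cyclin with a CCAAT box and no CHR (Ccnd3, chr9:20897876-20898025 on the minus strand) are as follows.
Tyms: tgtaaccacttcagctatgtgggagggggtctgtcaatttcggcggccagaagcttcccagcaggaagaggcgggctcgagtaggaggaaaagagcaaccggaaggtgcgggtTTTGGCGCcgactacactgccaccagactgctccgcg
Ccnd3: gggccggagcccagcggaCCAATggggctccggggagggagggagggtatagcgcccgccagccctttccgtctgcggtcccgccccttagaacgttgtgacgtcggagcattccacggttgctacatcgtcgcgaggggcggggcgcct

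Libraries held between 4866790 and 8938227 counts. The 37 genes of the mitochondrial genome took 18.9%, 53.6% and 76.3% of them in EEP 1, 2 and 3, 64.8% to 82.5% in CP, 68.7% to 75.2% in AS and 44.1% to 56.5% in normal tissue. After this, 3 counts stood for 0.177 to 0.867 CPM, the unit of counts scaled to library size, here with TMM factors. Members were therefore read from few counts in some libraries, and 9 of the 42 had no count in CP 1, against at most 3 in any other library. The uterine markers Esr1, Pgr, Hoxa10, Hoxa11, Hoxd10 and Emx2 were detected in all 12 libraries. Sums over markers of other cell types also differed between groups, and the genes with the highest levels lead such sums. Stromal markers summed to 2457 to 7347 CPM in EEP, 3407 to 5134 in CP, 5230 to 7520 in AS and 6516 to 8828 CPM in normal tissue. Col1a1 alone gave 1047 to 4577 CPM per library, and all 7 stromal markers had lower values in EEP and in CP than in normal tissue. Smooth muscle markers summed to 1276 to 2828 CPM in EEP, 2077 to 3107 in CP, 4099 to 8039 in AS and 3649 to 4037 CPM in normal tissue. Of these 8 markers, 2 had higher and 6 lower values in EEP than in normal tissue, and 3 had higher and 5 lower values in CP. Markers of stratified epithelium summed to 101 to 143 CPM in EEP, 8.29 to 48.1 in CP, 0.767 to 17.1 in AS and 1.80 to 5.47 CPM in normal tissue, and 1 of these markers was called higher in EEP against AS and against normal tissue. Of the 7 such markers in the table, 0, 0 and 1 had no count in EEP 1, 2 and 3, 4, 1 and 1 in CP, 3, 4 and 4 in AS and 3, 2 and 3 in normal tissue. Their part in the results below was not tested.

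No member was called in any of the 6 comparisons by edgeR's quasi-likelihood test at a Benjamini-Hochberg adjusted p under 0.05, the threshold by which genes are called here. DESeq2 also called 0 of the members to which it gave an adjusted p, but it gave none to 37 of the 41 in EEP against AS, 18 in EEP against normal tissue, 5 in AS against normal tissue and 3 in CP against AS, which it could not call. The whole table gave few calls. Of the 13909 genes tested, 0.00719% were called for AS against normal tissue, 0.0144% for EEP against AS, 0.00719% for CP against AS, 0% for EEP against CP, 0.00719% for EEP against normal tissue and 0% for CP against normal tissue. Values below are therefore descriptions of levels and of their spread, and in bulk tissue fewer dividing cells and less RNA per cell cannot be told apart. The sum of the G1 regulators was nearly level between groups, at 236 to 270 CPM in EEP, 213 to 267 in CP, 253 to 268 in AS and 252 to 287 CPM in normal tissue. Ccnd1 alone gave 59.0 to 129 CPM per library, and single members moved in opposite directions within the sum. In AS against normal tissue, for example, their log2 fold changes ran from -2.45 to 1.38. Mitotic genes, of which 7 of 25 had no count in CP 1, spread more by their sum. Their sum was 176, 107 and 145 CPM in EEP 1, 2 and 3, 60.6, 123 and 128 CPM in CP, 169, 152 and 150 CPM in AS, and 183, 228 and 138 CPM in normal tissue. By this sum all 3 CP libraries lay below all AS and all normal libraries, while EEP overlapped with each of the other groups. By the mean log2 CPM of the mitotic genes, relative to the mean of the 12 libraries, CP overlapped with AS and normal tissue. There CP 3 (0.077) lay above AS 3 (0.044) and normal 3 (-0.037). The S-phase enzymes summed to 25.2, 15.0 and 15.0 CPM in EEP, 18.6, 26.4 and 22.5 CPM in CP, 42.4, 24.2 and 32.6 CPM in AS, and 39.1, 30.1 and 29.5 CPM in normal tissue. By this sum all EEP and all CP libraries lay below all normal libraries. Singly, only Tyms in EEP and only Tk1 in CP lay wholly below normal tissue, as did 8.44% and 14.8% of all genes. Rrm1 averaged 14.6 CPM in CP, against 12.1 CPM in normal tissue.

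**Figure D1:**
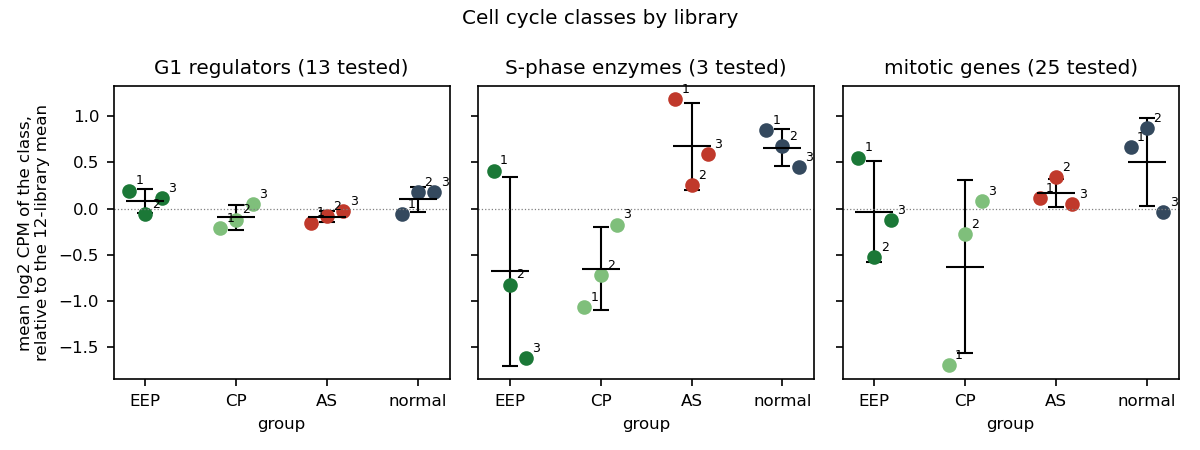
Mean log2 CPM of the tested genes of each class, relative to the mean of the 12 libraries (vertical axis, log2 units), for EEP, CP, AS and normal libraries; points are libraries with their replicate number, and bars give the mean and SD of 3. Class means of the G1 regulators stay between -0.21 and 0.19, whereas those of the mitotic genes run from -1.69 in CP 1 to 0.87 in normal 2.

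**Figure D2:**
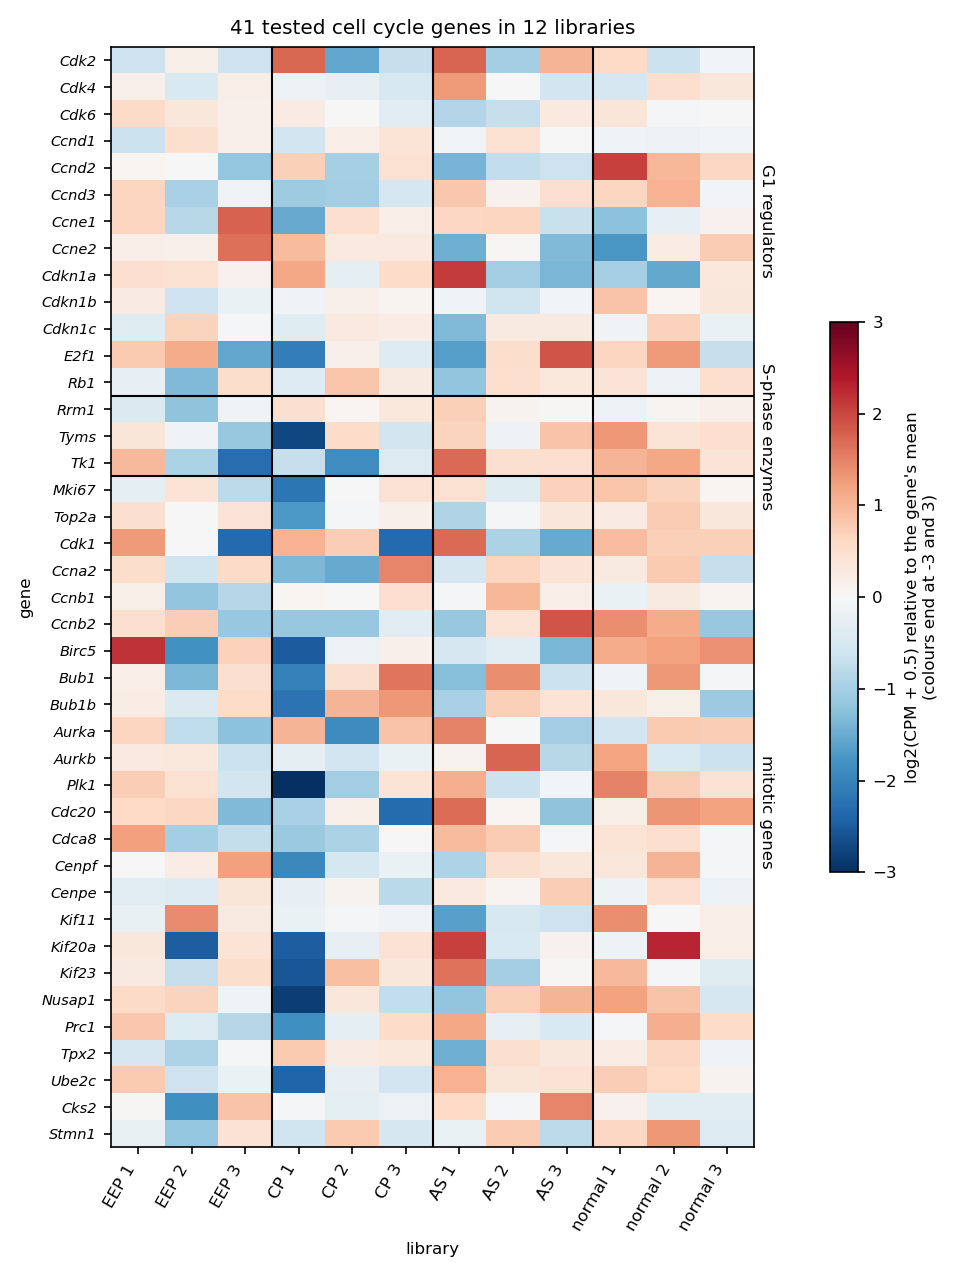
Levels of the 41 tested members in the 12 libraries, as log2(CPM + 0.5) relative to each gene's mean, with EEP, CP, AS and normal libraries in columns and the 3 classes in rows. The mitotic block is bluest in CP 1, where 12 of 25 mitotic genes have their lowest value of all libraries.

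AS was compared with normal tissue to show what the scraping itself leaves. The leading member was Ccnd2, cyclin D2, an activator of Cdk4 and Cdk6 (chr4:159966883-159989261, minus strand, mRatBN7.2). It had 1.67, 2.88 and 3.16 CPM in AS, against 23.1, 10.8 and 8.25 CPM in normal tissue. All 3 AS libraries thus lay below all normal libraries, with means of 2.57 ± 0.79 CPM in AS and 14.1 ± 7.93 CPM in normal tissue (SD, n = 3). The log2 fold change was -2.45 (SE 0.68), with an unadjusted p of 0.00219 and an adjusted p of 0.596 by edgeR's quasi-likelihood test, rank 49 of the 13909 genes by p. DESeq2 gave it an adjusted p of 0.0717. It was the only member under an unadjusted p of 0.05, against 2.88% of all genes on the lower side and 2.67% on the higher side.

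Among the other G1 regulators, Cdkn1b encodes p27, an inhibitor of cyclin-dependent kinases. It had 31.6, 22.6 and 32.8 CPM in AS, against 63.0, 36.1 and 43.7 CPM in normal tissue, without overlap (log2 fold change -0.71, adjusted p = 0.891 by edgeR). Cdkn1a, which encodes the inhibitor p21, had 38.01, 3.84 and 2.97 CPM in AS, against 4.01, 2.60 and 10.6 CPM in normal tissue. Its log2 fold change of 1.38 (edgeR adjusted p = 0.908) rested on AS 1 and was -0.77 without that library. The class as a whole was balanced, with 6 G1 regulators higher and 7 lower in AS and a median log2 fold change of -0.11, beside 0.03 over all genes.

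Of the S-phase enzymes, Tyms (thymidylate synthase), Tk1 (thymidine kinase) and Rrm1 (the large subunit of ribonucleotide reductase) had log2 fold changes of -0.29, 0.14 and 0.30, each below its own SE of 0.66, 1.05 and 0.43. Among mitotic genes, Kif11, a kinesin that pushes spindle poles apart, had 0.335, 1.34 and 1.19 CPM in AS, against 6.33, 2.10 and 2.49 CPM in normal tissue. Birc5, which encodes survivin of the chromosomal passenger complex, had 1.51, 1.73 and 0.593 CPM in AS, against 5.59, 6.01 and 6.81 CPM in normal tissue. In both genes the AS libraries lay below all normal libraries, and edgeR's log2 fold changes were -1.92 and -2.25, with an adjusted p of 0.891 each. Without normal 1 the values of Kif11 and Cdkn1b were -1.27 and -0.47. Cks2, a small subunit of cyclin-dependent kinases, had the opposite sign, at 7.87, 4.80 and 14.8 CPM in AS, against 5.59, 3.904 and 3.84 CPM in normal tissue (log2 fold change 1.04, edgeR adjusted p = 0.937; 0.50 without AS 3). In all, 11 mitotic genes were higher and 14 lower in AS, while 48.3% of all genes were lower. Their median of -0.24 took the values 0.04 without AS 3, 0.18 without normal 2 and 0.18 when the fit included the mitochondrial share. The members that lay wholly below normal tissue were 4, Ccnd2, Cdkn1b, Birc5 and Kif11, and 0 lay above, against 8.26% and 6.51% of all genes.

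**Figure D3:**
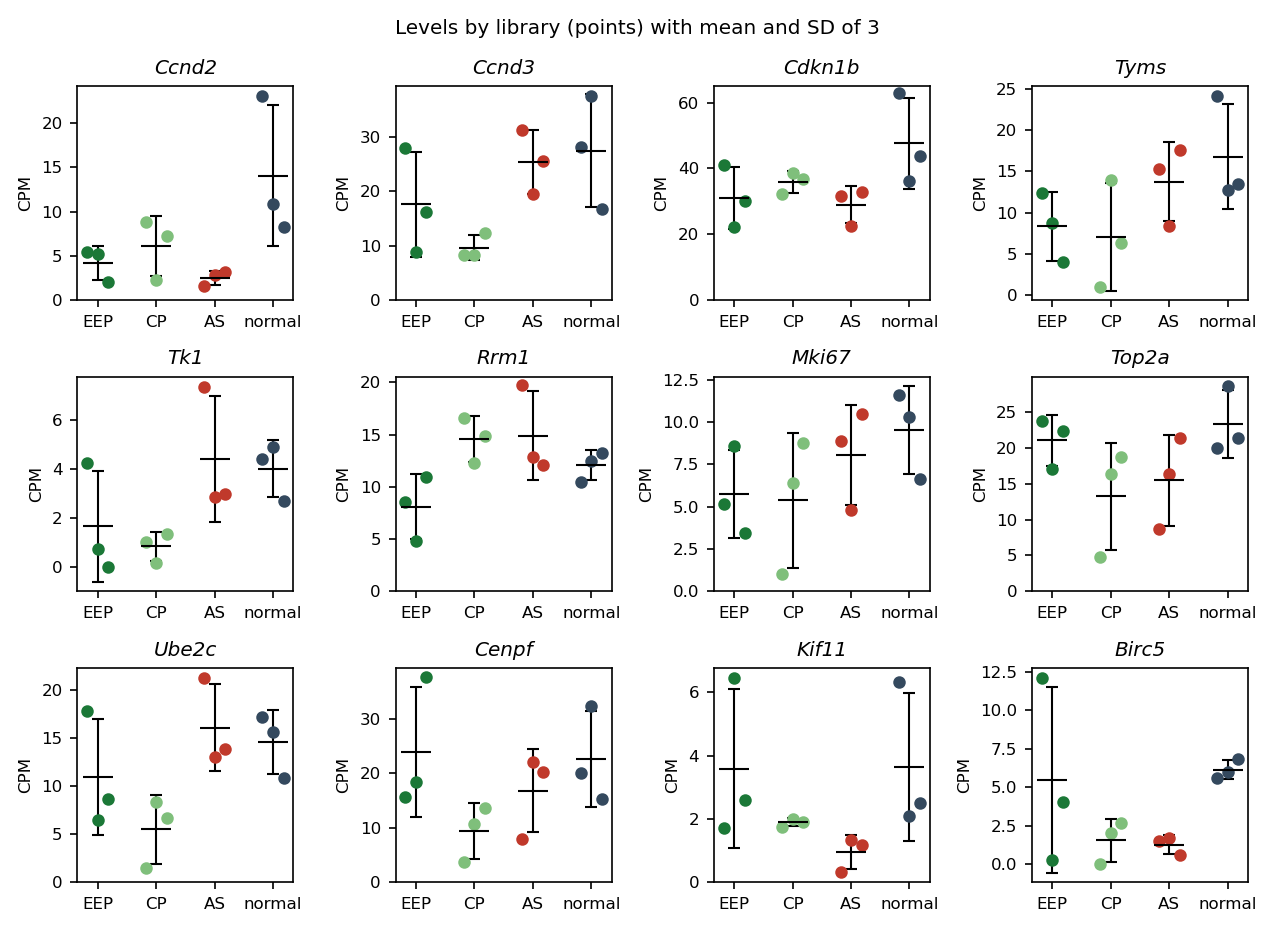
CPM per library (points) with mean and SD of 3 (bars) of 12 members, by group in the order EEP, CP, AS and normal; each panel has its own vertical scale. Ccnd2, Kif11 and Birc5 are low in AS relative to normal tissue, while Ccnd3, Ube2c and Tk1 are low in CP relative to AS.

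EEP was compared with AS to ask what the patch with cells adds to injured tissue. No member reached an unadjusted p of 0.05, against 5.17% of all genes on the lower and 4.97% on the higher side. Some genes with low values in AS had higher values in EEP. Kif11 had 1.71, 6.45 and 2.60 CPM in EEP, against 0.335, 1.34 and 1.19 CPM in AS (log2 fold change 1.90, SE 0.94, edgeR adjusted p = 0.523). Birc5 had 12.1, 0.300 and 4.05 CPM in EEP, against 1.51, 1.73 and 0.593 CPM in AS, and its log2 fold change of 2.11 (edgeR adjusted p = 0.543) was 0.69 without EEP 1. The value of Kif11 was 1.15 without EEP 2. Because both comparisons use the same AS libraries, low AS values enter each of them. EEP 2 and EEP 1 stood at opposite ends for Birc5, whereas no EEP library overlapped with AS for Kif11. Kif11 had only 2, 7 and 6 counts in AS 1, 2 and 3. Its exact 95% Poisson intervals, which cover counting error only, overlapped between EEP 1 (1.15 to 2.46 CPM) and AS 2 (0.540 to 2.77 CPM).

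Ccne2, cyclin E2, had 2.66, 2.55 and 8.09 CPM in EEP, against 0.502, 2.30 and 0.593 CPM in AS, also without overlap (log2 fold change 1.94, edgeR adjusted p = 0.543). Cdk6, a partner of D-type cyclins, had 38.96, 33.3 and 29.2 CPM in EEP, against 14.1, 15.9 and 32.2 CPM in AS (log2 fold change 0.71, edgeR adjusted p = 0.546). Cdk2, the partner of E-type cyclins, had 1.42, 2.85 and 1.45 CPM in EEP, against 9.54, 0.959 and 5.53 CPM in AS (log2 fold change -1.48, edgeR adjusted p = 0.661). AS 2 lay below the EEP values for Cdk2, and AS 3 among those for Cdk6, so both genes overlapped. With a library left out, Cdk2 ran from -1.94 (without AS 2) to -0.71 (without AS 1). Cdk6 ran from 0.55 (without AS 1) to 1.22 (without AS 3), and Ccne2 from 1.25 (without EEP 3) to 3.00 (without AS 2).

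All 3 S-phase enzymes tested had negative fold changes in EEP. Rrm1 had 8.57, 4.80 and 10.98 CPM in EEP, against 19.8, 12.9 and 12.1 CPM in AS, with no overlap (log2 fold change -0.88, SE 0.44, edgeR adjusted p = 0.523). Tk1 had 4.26, 0.750 and 0 CPM in EEP, against 7.37, 2.88 and 2.97 CPM in AS (log2 fold change -1.30, edgeR adjusted p = 0.721). Tyms had 12.4, 8.71 and 4.05 CPM in EEP, against 15.2, 8.44 and 17.6 CPM in AS (log2 fold change -0.69, edgeR adjusted p = 0.763). For Tk1 and Tyms, EEP 1 was the highest and EEP 3 the lowest of the EEP libraries. With a library left out, Tk1 ran from -3.32 (without EEP 1) to -0.64 (without AS 1), Tyms from -1.09 (without EEP 1) to -0.33 (without EEP 3), and Rrm1 was -0.58 without AS 1. Most mitotic genes also sat lower, with 19 of 25 below 0 (76%, beside 49.1% of all genes). Their median log2 fold change was -0.42, beside 0.02 over all genes. Genes of a class are read from the same libraries, so such counts are not counts of separate observations. Ccnb1, cyclin B1 of the mitotic kinase, is an example at 4.61, 1.501 and 2.02 CPM in EEP, against 3.85, 8.63 and 4.74 CPM in AS (log2 fold change -1.04, edgeR adjusted p = 0.635; -1.71 without EEP 1 and -0.58 without AS 2). The mitotic median was -0.18 without EEP 2, -0.22 without AS 1, -0.28 without AS 2 and -0.65 without EEP 1. Of all members 1 lay wholly below AS and 2 above it, against 7.05% and 6.18% of all genes.

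CP was compared with AS to see what the patch without cells adds. The 2 members under an unadjusted p of 0.05 were both lower in CP, against 6.71% of all genes on the lower and 5.28% on the higher side. Ccnd3, cyclin D3 (chr9:13394161-13400341, minus strand, mRatBN7.2), had 8.30, 8.39 and 12.4 CPM in CP, against 31.3, 19.6 and 25.5 CPM in AS. Ube2c, which loads ubiquitin for the anaphase-promoting complex (chr3:153506636-153509036, plus strand, mRatBN7.2), had 1.51, 8.39 and 6.66 CPM in CP, against 21.3, 13.05 and 13.8 CPM in AS. Neither gene overlapped between the groups. By edgeR the log2 fold change of Ccnd3 was -1.39 (SE 0.46, adjusted p = 0.309) and that of Ube2c -1.52 (SE 0.58, adjusted p = 0.334), and the lowest adjusted p that any alternative gave was 0.128 for Ccnd3 by DESeq2.

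Ccnd2, of the same D-type family as Ccnd3, had the opposite sign, with 8.80, 2.35 and 7.23 CPM in CP, against 1.67, 2.88 and 3.16 CPM in AS (log2 fold change 1.24, edgeR adjusted p = 0.468). Ccne2 had 4.78, 2.85 and 2.85 CPM in CP, against 0.502, 2.30 and 0.593 CPM in AS (log2 fold change 1.61, edgeR adjusted p = 0.533), from 51 counts over the CP group and 18 over AS. Its value ran from 1.29 (without AS 1) to 2.66 (without AS 2). Only Ccne2 of this pair was free of overlap. Tk1 had 1.01, 0.168 and 1.33 CPM in CP, against 7.37, 2.88 and 2.97 CPM in AS (log2 fold change -2.40, SE 1.16, edgeR adjusted p = 0.430), from 12 counts over the CP group and 74 over AS. Tyms (log2 fold change -0.94, edgeR adjusted p = 0.583, from -1.85 without CP 2 to -0.41 without CP 1) and Rrm1 (-0.03, edgeR adjusted p = 0.982) overlapped with AS. The S-phase class was therefore uneven in CP, with Rrm1 overlapping with AS and Tk1 wholly below it.

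Among mitotic genes 20 of 25 had lower values in CP than in AS (80%, beside 50.7% of all genes), with a median log2 fold change of -0.57, beside -0.02 over all genes. Cdca8, which encodes borealin of the chromosomal passenger complex, had 2.51, 2.85 and 5.90 CPM in CP, against 12.1, 10.6 and 5.73 CPM in AS (log2 fold change -1.32, edgeR adjusted p = 0.451). Ccnb2, cyclin B2, had 2 counts in all of CP against 23 in AS, a pooled ratio of 0.0930 with a 95% interval of 0.0106 to 0.376 that covers counting error only (edgeR adjusted p = 0.509). CP 3 held both of the CP counts, while AS 1, 2 and 3 held 0, 5 and 18. The log2 fold change was -3.36, and -1.69 without AS 3. The mitotic median was -0.41 without CP 1, -0.99 without CP 3 and -0.29 without AS 1. Of all members 4 lay wholly below AS (Ccnd3, Tk1, Ube2c and Cks2) and 2 above (Ccne2 and Kif11), against 9.22% and 8.73% of all genes.

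EEP was compared with CP to separate the cells from the patch that carries them. Cenpf, a kinetochore protein of G2 and mitosis (chr13:101184127-101229714, minus strand, mRatBN7.2), had 15.7, 18.5 and 37.6 CPM in EEP, against 3.77, 10.7 and 13.7 CPM in CP. Every EEP library lay above every CP library, with a log2 fold change of 1.32 (SE 0.54), an unadjusted p of 0.0266 and an adjusted p of 0.9997 by edgeR. It was the only member under an unadjusted p of 0.05, against 1.12% of all genes on the lower and 1.87% on the higher side. Ube2c had 17.8, 6.45 and 8.67 CPM in EEP, against 1.51, 8.39 and 6.66 CPM in CP (log2 fold change 0.99). Birc5 had 12.1, 0.300 and 4.05 CPM in EEP, against 0, 2.02 and 2.66 CPM in CP (log2 fold change 1.80). Both overlapped, and without EEP 1 their values were 0.42 and 0.39. That of Cenpf was 0.86 without EEP 3. By edgeR the adjusted p of every member was 0.9997.

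Of the mitotic genes, 17 of 25 had higher values in EEP and 32% lower ones, beside 47.3% of all genes lower. They had a median log2 fold change of 0.25, beside 0.04 over all genes. That median was 0.16 without EEP 1 and 0.93 without CP 3, and -0.06 when the fit included the mitochondrial share. The G1 regulators were balanced, 7 higher and 6 lower, with a median of 0.05. Ccnd3 had 28.0, 8.86 and 16.2 CPM in EEP, against 8.30, 8.39 and 12.4 CPM in CP (log2 fold change 0.87, and 0.35 without EEP 1). E2f1, a transcription factor of S-phase genes, had a log2 fold change of 1.18 (0.71 without CP 1 and 1.85 without CP 2) and Cdk6 of 0.39. The S-phase enzymes were mixed. Rrm1 had 8.57, 4.80 and 10.98 CPM in EEP, against 16.6, 12.3 and 14.8 CPM in CP, and lay wholly below CP (log2 fold change -0.85). Tk1 and Tyms had log2 fold changes of 1.10 and 0.25, which were -0.93 and -0.15 without EEP 1. Of all members 2 lay wholly below CP (Rrm1 and Tpx2, a spindle assembly factor) and 1 above, against 3.07% and 3.87% of all genes.

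**Figure D4:**
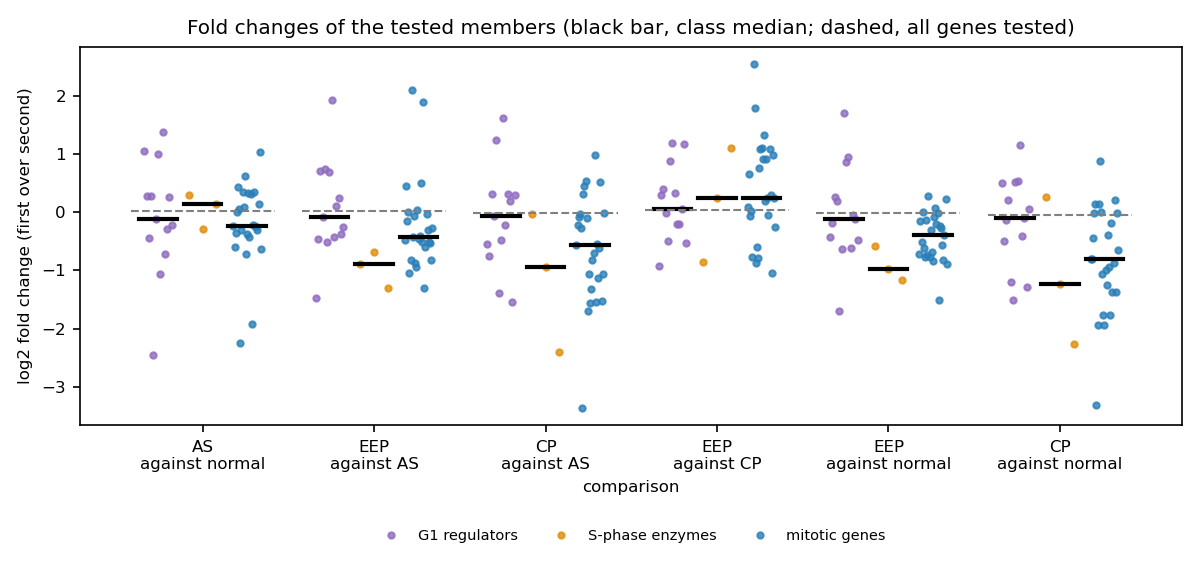
log2 fold change of each tested member (points, vertical axis) in the 6 comparisons, first group over second, with class medians (black bars) and the median of all genes tested (dashed). The medians of the mitotic genes are -0.42 for EEP against AS, -0.57 for CP against AS and -0.81 for CP against normal tissue.

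EEP was set against normal tissue to show how far tissue with the cell patch stood from uninjured tissue. Ccnd2 had 5.44, 5.25 and 2.02 CPM in EEP, against 23.1, 10.8 and 8.25 CPM in normal tissue, without overlap (log2 fold change -1.70, SE 0.65, edgeR adjusted p = 0.595). It was the only member under an unadjusted p of 0.05, against 2.76% of all genes on the lower and 4.8% on the higher side. Cdkn1b (log2 fold change -0.61) and Ccnd3 (-0.63) overlapped with normal tissue, at an edgeR adjusted p of 0.752 and 0.823. Tyms had 12.4, 8.71 and 4.05 CPM in EEP, against 24.1, 12.7 and 13.5 CPM in normal tissue, and lay wholly below it (log2 fold change -0.98, edgeR adjusted p = 0.810). Rrm1 (-0.58) and Tk1 (-1.16) overlapped, so that all 3 S-phase enzymes had negative values. Tk1 was -3.19 without EEP 1 and -0.61 without EEP 3. Ccnd3 was -1.15 without EEP 1, and without EEP 2 the values of Ccnd3 and Rrm1 were -0.31 and -0.32. Without normal 1 those of Cdkn1b and Tyms were -0.36 and -0.63.

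Mitotic genes had lower values in EEP in 21 of 25 cases (84%, beside 50.3% of all genes), with a median log2 fold change of -0.39, beside -0.01 over all genes. Stmn1, which encodes the microtubule destabiliser stathmin, had 7.27, 3.60 and 11.9 CPM in EEP, against 13.5, 21.9 and 6.33 CPM in normal tissue (log2 fold change -0.89, edgeR adjusted p = 0.821; -0.41 without normal 2). Kif20a, a kinesin of cytokinesis, had 3.02, 0 and 3.18 CPM in EEP, against 2.00, 13.01 and 2.69 CPM in normal tissue (log2 fold change -1.52, edgeR adjusted p = 0.851), and without normal 2 its value was -0.20. Tpx2 had a log2 fold change of -0.83 (edgeR adjusted p = 0.857). In each of these 3 genes the groups overlapped. The mitotic median ran from -0.88 (without EEP 1, the library with the lowest mitochondrial share) to -0.26 (without normal 1). Of all members 2 lay wholly below normal tissue and 0 above, against 8.44% and 6.14% of all genes.

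CP against normal tissue had the lowest mitotic median of the 6 comparisons. Ccnd3 had 8.30, 8.39 and 12.4 CPM in CP, against 28.2, 37.4 and 16.8 CPM in normal tissue (log2 fold change -1.50, SE 0.46, unadjusted p = 0.00499, edgeR adjusted p = 0.228). With the 2 groups fitted alone its edgeR adjusted p was 0.0538. Ube2c had 1.51, 8.39 and 6.66 CPM in CP, against 17.2, 15.6 and 10.8 CPM in normal tissue (log2 fold change -1.38, edgeR adjusted p = 0.330). Cenpf had 3.77, 10.7 and 13.7 CPM in CP, against 20.0, 32.3 and 15.3 CPM in normal tissue (log2 fold change -1.25, edgeR adjusted p = 0.349). These 3 genes, all without overlap, were the members under an unadjusted p of 0.05, against 5.88% of all genes on the lower and 6.77% on the higher side.

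Cdc20, which activates the anaphase-promoting complex that Ube2c serves, had 1.26, 3.36 and 0.190 CPM in CP, against 3.37, 8.11 and 7.39 CPM in normal tissue (log2 fold change -1.94, edgeR adjusted p = 0.432). Its value ran from -3.13 (without CP 2) to -1.17 (when the fit included the mitochondrial share). Plk1, a kinase of mitotic entry and spindle assembly, had 0, 1.51 and 4.95 CPM in CP, against 11.1, 6.41 and 5.09 CPM in normal tissue. Top2a, the topoisomerase that untangles chromosomes, had 4.78, 16.3 and 18.6 CPM in CP, against 19.9, 28.6 and 21.3 CPM in normal tissue, with means of 13.2 ± 7.42 CPM in CP and 23.3 ± 4.68 CPM in normal tissue (SD, n = 3). None of these 3 genes overlapped with normal tissue, though CP 2 was just under normal 1 for Cdc20 and CP 3 just under normal 3 for Plk1. Mki67, which encodes the proliferation antigen Ki-67, had 1.01, 6.38 and 8.75 CPM in CP, against 11.6, 10.3 and 6.62 CPM in normal tissue, and overlapped through CP 3. Its value in CP 1 came from 4 counts, with an exact 95% Poisson interval of 0.274 to 2.57 CPM that covers counting error only.

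Across the class, 20 of 25 mitotic genes had lower values in CP than in normal tissue (80%, beside 51.6% of all genes). Their median log2 fold change was -0.81, beside -0.04 over all genes. Among all members 9 lay wholly below normal tissue and 0 above, against 14.8% and 13.1% of all genes. Of these, 7 are mitotic, 28% of the 25 (Top2a, Birc5, Plk1, Cdc20, Cenpf, Kif11 and Ube2c), and the others are Ccnd3 and Tk1. In each of these 9 members the exact 95% Poisson intervals of the nearest CP and normal libraries overlapped. For Kif11 they were 1.04 to 3.52 CPM in CP 2 and 1.30 to 3.21 CPM in normal 2. CP 1 weighed heavily. Without it the mitotic median was -0.47, with 19 of 25 genes lower, whereas it was -1.24 without CP 3. The S-phase enzymes had log2 fold changes of -2.26 for Tk1, -1.23 for Tyms and 0.27 for Rrm1, with an edgeR adjusted p of 0.427, 0.459 and 0.827. Tyms ran from -2.15 (without CP 2) to -0.71 (without CP 1). Tk1 ran from -2.81 (without CP 3) to -0.82 (when the fit included the mitochondrial share). Among the remaining G1 regulators Ccnd2 had a log2 fold change of -1.20 and Cdkn1a of 1.16, with an edgeR adjusted p of 0.449 and 0.567. Without normal 1 the value of Ccnd2 was -0.65, and Cdkn1a ran from 0.78 (without CP 1) to 1.95 (without normal 3).

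**Figure D5:**
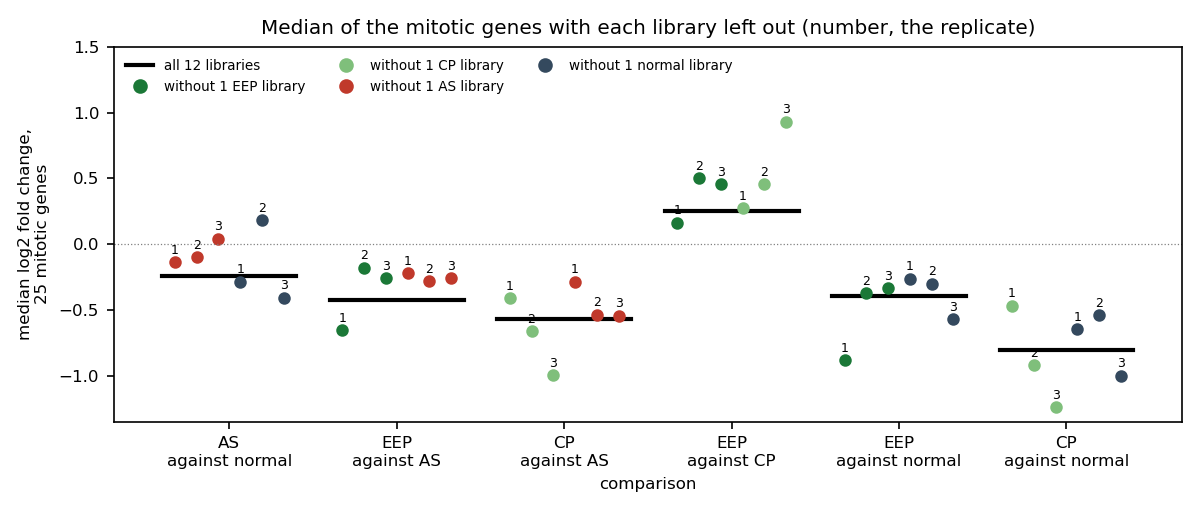
Median log2 fold change of the 25 mitotic genes (vertical axis) in each comparison with all libraries (black bar) and with each library left out (points, coloured by the group of the library left out, numbered by replicate). CP against normal tissue runs from -1.24 without CP 3 to -0.47 without CP 1, and AS against normal tissue crosses 0.

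Libraries of the same group differed widely. CP 1 had the lowest value of all 12 libraries in 12 of 25 mitotic genes (48%), while it had the lowest value in 15.5% of all genes tested. Among 123 other cell cycle genes, the wider pathway described below, it was lowest in 24 (19.5%). Of the 25 mitotic genes, 7 had no count in CP 1. CP 1 also had the highest mitochondrial share, 82.5%. AS 1 had the highest value in 11 of 41 members (26.8%), against 18.8% of all genes. AS 1 also stood apart in markers of erythrocytes, which summed to 2810 CPM in it and to 198 to 819 CPM in the other libraries, and of leukocytes, at 2565 CPM, against 221 to 911 CPM elsewhere. Epithelial markers summed to 2206 CPM in AS 1, against 131 and 181 CPM in AS 2 and 3. In EEP, the summed mitotic level was highest in EEP 1, which had the lowest mitochondrial share and stood apart in several marker lists. Epithelial markers summed to 1200, 190 and 154 CPM in EEP 1, 2 and 3, against 663, 261 and 171 CPM in CP and 461, 182 and 525 CPM in normal tissue. Stromal markers summed to 7347, 3333 and 2457 CPM in EEP 1, 2 and 3, and endothelial markers to 30.3, 97.9 and 220 CPM. The part of the mitochondrial share and of cell composition in these levels was not tested beyond the fits that included that share.

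Markers of division were also compared across all 4 groups. Mki67 had 5.14, 8.56 and 3.47 CPM in EEP and 8.87, 4.80 and 10.5 CPM in AS, so that its means were 5.72 ± 2.59 in EEP, 5.38 ± 3.97 in CP, 8.05 ± 2.93 in AS and 9.51 ± 2.58 CPM in normal tissue (SD, n = 3). Top2a had 23.8, 17.0 and 22.3 CPM in EEP and 8.71, 16.3 and 21.3 CPM in AS. The order of the means differs between these markers of division, and neighbours in it differ by less than the larger of their SDs. Cdk1, the kinase of mitotic entry, varied within groups, with 12.5, 4.95 and 0.578 CPM in EEP, 10.6, 8.56 and 0.571 CPM in CP, 16.9, 2.30 and 1.38 CPM in AS, and 9.81, 8.41 and 8.35 CPM in normal tissue. Normal tissue was even for Cdk1, and EEP, CP and AS each held a library at or below 1.38 CPM.

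Ccnd1, cyclin D1, averaged 97.1 ± 35.5 CPM in EEP, 98.3 ± 32.3 in CP, 103 ± 21.9 in AS and 85.2 ± 2.56 CPM in normal tissue (SD, n = 3), and its groups overlapped throughout. The spindle checkpoint genes Bub1 and Bub1b ranged from 0 in CP 1 to 5.71 and 5.14 CPM in CP 3. Aurka and Aurkb, kinases of spindle assembly and of the chromosomal passenger complex, stayed between 0 and 4.69 CPM. Ccna2, cyclin A2, stayed between 0.168 and 4.76 CPM, and Ccne1, cyclin E1, between 0 and 4.33 CPM. Cenpe, a kinetochore kinesin, lay between 3.62 and 11.5 CPM, Prc1, which bundles the midzone of the spindle, between 1.51 and 15.7 CPM, Nusap1, a spindle protein, between 0.251 and 11.7 CPM, and Kif23, a kinesin of cytokinesis, between 0 and 8.71 CPM. Cdk4 lay between 10.9 and 40.4 CPM, Rb1, the retinoblastoma gene, between 3.00 and 15.1 CPM, and Cdkn1c, which encodes the inhibitor p57, between 7.70 and 32.6 CPM. Rrm2, the small subunit of ribonucleotide reductase, had 7 counts in all, 1 in EEP 1, 5 in EEP 2 and 1 in normal 1, and was not tested.

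A further 130 genes of DNA replication, chromosome segregation and cell cycle control were taken as the wider pathway, of which 123 were tested. By edgeR, 0 were called in each comparison. At an unadjusted p of 0.05, 6 were lower in AS against normal tissue (4.88%, beside 2.88% of all genes), 4 in EEP against AS (3.25%, beside 5.17%), 7 in CP against AS (5.69%, beside 6.71%), 0 in EEP against CP (beside 1.12%), 3 in EEP against normal tissue (2.44%, beside 2.76%) and 8 in CP against normal tissue (6.5%, beside 5.88%). On the higher side they numbered 1 (0.813%, beside 2.67%), 3 (2.44%, beside 4.97%), 2 (1.63%, beside 5.28%), 3 (2.44%, beside 1.87%), 2 (1.63%, beside 4.8%) and 0 (beside 6.77%), in the same order. Their median log2 fold change was -0.39 for CP against normal tissue, with 79 of 123 lower (64.2%, beside 51.6% of all genes). For CP against AS it was -0.14, with 69 lower (56.1%, beside 50.7%). It was -0.03 for EEP against AS, where 63 of 123 were lower (51.2%, beside 49.1%). DESeq2 called 1 of the 15 of these genes to which it gave an adjusted p for EEP against AS (6.67%, beside 3.84% of all genes with one) and 2 of 96 for CP against AS (2.08%, beside 1.08%). They are named here after their values were seen, and shares from 1 or 2 genes say nothing particular about the list. Ccng1, cyclin G1, a target of p53, had 26.2, 40.7 and 49.4 CPM in EEP and 30.7, 40.5 and 32.9 CPM in CP, against 74.7, 84.2 and 109 CPM in AS. All EEP and all CP libraries lay below AS, with DESeq2 log2 fold changes of -1.19 (adjusted p = 0.0309) for EEP and -1.34 (adjusted p = 0.0213) for CP, both measured against the same AS libraries. Rbl1, which encodes p107 of the retinoblastoma family, had 5.03, 3.69 and 2.09 CPM in CP, against 0.335, 0 and 0 CPM in AS (DESeq2 adjusted p = 0.0373). Its only AS value above 0 lay below the 0.502 CPM that 3 counts stood for in AS 1, so the DESeq2 log2 fold change of 4.91 is near the floor. By edgeR the lowest adjusted p in the wider list was 0.261 for CP against AS and 0.348 for EEP against AS. The wider list had negative medians in the same comparisons, nearer to 0 than the -0.81, -0.57 and -0.42 of the mitotic members, and the difference between the lists was not tested.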

How the data were processed

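Raw counts per gene of the 12 libraries were deposited by the authors as whole numbers. Reads were aligned with Bowtie2 and counted with bedtools, per the submitters' processing notes, which name the mouse build mm10 and give no versions; the authors' information sheet names rat build mRatBN7.2, and the symbols and sequence names are those of rat. Whether counting used strand is not given in the sources used here. Chromosome names were assigned through symbols shared with a RefSeq table of build GRCr8, from which the promoters were also taken.

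Counts were scaled by TMM and filtered with filterByExpr in edgeR 4.0.16 (R 4.3.3), which left 13909 genes. A quasi-likelihood model held all 4 groups, and Benjamini-Hochberg adjustment ran over all genes tested. The biological coefficient of variation was 59.2%. Genes with statistics are the 3 members of each class with the smallest unadjusted p in a comparison; levels may be given for any member, and Mki67 and Top2a always are. Alternatives were RLE scaling, DESeq2 1.42.0, other filters and thresholds, 2 groups alone, the replicate number as a block, mitochondrial genes removed, the mitochondrial share as a covariate, and each library left out. The members and lists were chosen with earlier results of these data known.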

Additional observations from a re-analysis of the deposited data

How the results depend on the processing

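No member was called in any comparison by any of 15 settings each, but DESeq2 gave no adjusted p to 37 of 41 members in EEP against AS, 18 in EEP against normal tissue, 5 in AS against normal tissue and 3 in CP against AS, so for these it bears on nothing; the lowest adjusted p of a member was 0.0538 (Ccnd3, CP against normal tissue, 2 groups alone). Calls over all genes depended strongly on the setting, against 1 for AS against normal tissue, 2 for EEP against AS, 1 for CP against AS, 0 for EEP against CP, 1 for EEP against normal tissue and 0 for CP against normal tissue, in that order. DESeq2 called 34, 140, 132, 1, 78 and 276 genes, and edgeR without a low-count filter 154, 143, 230, 5, 232 and 445. An adjusted p under 0.1 gave 2 for CP against AS and 6 for CP against normal tissue. With 2 groups alone the counts were 1 for EEP against AS, 3 for EEP against normal tissue and 585 for CP against normal tissue. The mitochondrial covariate gave 2 for CP against AS and 2 for EEP against normal tissue; for the last comparison, 5 CPM in 3 libraries and removal of mitochondrial genes each gave 0. Leaving out a library gave 1 to 6 for AS against normal tissue, 1 to 19 for EEP against AS, 1 to 5 for CP against AS, 0 to 200 for EEP against normal tissue (200 without EEP 1) and 0 to 6 for CP against normal tissue. The causes were not tested.

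With the replicate number as a block, 4 genes were called for EEP against normal tissue and 11 for CP against normal tissue, and the counts of the other comparisons stayed within 1.5 times; whether the same genes were called was not compared, and 0 members were called. Deviations of same-numbered libraries from their group means correlated at -0.08 to 0.35 over 18 pairs, with 5 over 0.1 and 8 best with their own number. The highest was that of EEP 1 with AS 1, and each EEP library was best with the CP library of its number. With 3 libraries per group, and the same 12 libraries in all pairs, these values cannot decide whether the numbers pair the libraries. No pairing was assumed, as the labels give none.

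Alternative values of single members were tallied only for the 3 members of each class with the smallest unadjusted p in a comparison. Of these values, 789 kept their sign and 14 turned. A choice by p from the same libraries favours a kept sign, so the tally does not describe all members. With a library left out, values for AS against normal tissue ran from -0.77 (without AS 1) to 2.17 for Cdkn1a, from -0.52 to 0.062 (without normal 1) for Tyms, and from -0.48 (without AS 1; -0.088 without normal 3) to 0.36 for Tk1. For CP against AS, Rrm1 ran from -0.14 to 0.26 (without AS 1; 0.11 without CP 2). For EEP against CP, they ran from -0.93 (without EEP 1) to 1.69 for Tk1 and from -0.24 (without CP 1; -0.15 without EEP 1) to 1.20 for Tyms. The mitochondrial covariate gave 0.32 for Tyms in AS against normal tissue, and -1.64 for Tk1 and -0.49 for Tyms in EEP against CP. The replicate block gave -0.10 for Tk1 in AS against normal tissue, and 5 CPM in 3 libraries gave 0.011 for Rrm1 in CP against AS. Of the alternative class medians, 307 moved by less than the SD between libraries and 29 by more. A change of sign can stand among the 307, as for the mitotic median of AS against normal tissue (-0.24, and 0.18 without normal 2). RLE scaling kept the sign of every class median.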
